A study of Mus musculus with 12 samples.

Results

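The genes described here are 10 genes grouped as tubular injury response genes: Havcr1, Lcn2, Spp1, Clu, Sox9, Cd44, Vcam1, Ubd, Gdpd3 and Aoc1. They combine known markers of injured tubules with genes selected on their large signal difference between the strains on these same arrays. The strain differences of these genes, which helped to choose them, are therefore given as a description with no test. A probe set, a group of short oligonucleotides on the array that reads 1 transcript, was assigned to a gene by its annotated symbol. By that rule 9 of the 10 genes had 20 probe sets among the 45101 of the array, and Spp1 was not analysed here. Of the 20 probe sets 17 passed the filter on low signal, and they covered all 9 genes among the 12385 genes tested.

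Total RNA of renal cortex was hybridised to Affymetrix oligonucleotide arrays covering the mouse genome. ICGN mice, labelled as having nephrotic syndrome, are an ICR-derived strain with hereditary glomerular disease that carries a mutation of Tns2, and ICR mice, labelled as normal, are the stock they came from. The groups were ICGN at 4 weeks, ICR at 4 weeks, ICGN at 8 weeks and ICR at 8 weeks, with 3 arrays each and 12 in all. The labels name no treatment, and they do not say how many mice an array holds or whether the replicates are litter mates, so p-values here reflect only how far these samples scatter, and 3 arrays a group limit the precision of every value.

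In a kidney whose glomeruli leak protein, the tubular epithelium is exposed to the filtered protein and can pass into an injured state. Cells in that state put out surface receptors and secreted proteins that healthy tubules make little of, among them the products of Havcr1 and Lcn2, which are measured in urine as injury markers. They also gain adhesion molecules such as Cd44 and Vcam1, and some re-express Sox9, a transcription factor of tubule regeneration. Bulk tissue mixes all cells of the cortex, so more cells of a type and more transcript per cell cannot be told apart in any result below.

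Signals are scaled so that every array has the same median of 40.4. Log2 fold changes are of signal plus an offset of 9 and are set against the median gene, each with its standard error (SE) from the fit. Tns2 checked the strain labels: it averaged 78.2 ± 15.9 in ICGN and 332 ± 13.0 in ICR at 4 weeks, and 74.2 ± 35.2 in ICGN and 320 ± 14.6 in ICR at 8 weeks (SD, n = 3 each). Log2 values of arrays of the same group correlated at 0.977 to 0.988 across genes. As deposited, and so before the scaling used here, the authors' values had a trimmed mean of 100 on every 4-week array and 500 on every 8-week array. They had thus already been scaled, to a target that differed by age, so age and processing set cannot be told apart. Over all genes, limma (adjusted p of 0.05 or less) called 1054 higher and 3224 lower in ICGN at 8 weeks, and with the deposited scaling 2415 higher and 1562 lower. For 8 weeks over 4 weeks in ICR it called 2224 higher and 1326 lower, and 1541 higher and 2530 lower when the deposited arrays were brought to 1 common target. Of 16 measured markers of the proximal tubule, the main epithelium of the cortex, none was at or below the array median on all arrays.

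The promoters of 4 members are shown because they had the largest strain differences at 8 weeks among members whose window lay outside their own transcripts. Each line gives the 250 bases before an annotated start, 5′ to 3′ on the gene's strand, from RefSeq on GRCm38.p6. The windows are chr2:32387740-32387989 on the minus strand for Lcn2, chr7:126766164-126766413 on the plus strand for Gdpd3, chr17:37193642-37193891 on the plus strand for Ubd, and chr6:48895005-48895254 on the plus strand for Aoc1, which overlaps the lncRNA Gm44764. Capitals mark letters that matched a searched motif.
Lcn2: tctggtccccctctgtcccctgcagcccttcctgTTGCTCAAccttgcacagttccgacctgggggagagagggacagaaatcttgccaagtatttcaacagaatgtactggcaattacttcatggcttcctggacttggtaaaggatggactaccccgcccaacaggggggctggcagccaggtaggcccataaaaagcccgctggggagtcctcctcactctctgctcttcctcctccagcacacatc
Gdpd3: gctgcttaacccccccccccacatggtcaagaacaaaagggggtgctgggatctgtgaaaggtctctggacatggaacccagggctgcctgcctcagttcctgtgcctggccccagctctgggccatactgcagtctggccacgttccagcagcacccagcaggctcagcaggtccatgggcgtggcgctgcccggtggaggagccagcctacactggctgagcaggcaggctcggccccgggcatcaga
Ubd: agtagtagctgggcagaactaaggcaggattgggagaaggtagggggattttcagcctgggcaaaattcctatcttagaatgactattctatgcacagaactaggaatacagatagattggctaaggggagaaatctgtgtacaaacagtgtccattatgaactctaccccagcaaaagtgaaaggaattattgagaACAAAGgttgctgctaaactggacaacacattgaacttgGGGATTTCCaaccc
Aoc1: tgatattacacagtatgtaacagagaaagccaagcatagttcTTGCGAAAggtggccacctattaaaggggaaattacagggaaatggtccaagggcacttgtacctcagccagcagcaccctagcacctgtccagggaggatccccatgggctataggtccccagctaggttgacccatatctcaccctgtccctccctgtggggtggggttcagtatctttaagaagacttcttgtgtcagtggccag

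The search used 10 motifs of 9 factors on both strands: GGGNTTTCC and GGANTTTCC for NF-kB, TGANTCA for AP-1, TTCNNNGAA for STAT, GAAANNGAA for the interferon-stimulated response element, TTGCNNAA for C/EBP, GGAATG for TEAD, ACAAAG for SOX, GTTAATNAT for HNF1 and TATAAA for the TATA box. The Ubd window held the NF-kB letters GGGATTTCC starting 14 bases before the start, a pattern found in 1.46% of all 32851 windows of that length. It also held ACAAAG at 53 bases before the start, a pattern found in 16.5% of windows. The Lcn2 window held the C/EBP letters TTGCTCAA at 216 bases before the start and the Aoc1 window TTGCGAAA at 208 bases, a pattern found in 9.56% of windows. In the Gdpd3 window none of these letters occurred. Such a match is a description of the sequence and not a binding site, and no match says only that these letters are not in the window. Promoters of 7 of the 10 genes were matched in RefSeq, in 11 windows.

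Across the strains, all 9 measured members were higher in ICGN than in ICR at 8 weeks, with no overlap of the arrays, and 7 of 9 were so at 4 weeks. Among all genes, groups lay apart with ICGN higher for 11.2% at 8 weeks and 10.8% at 4 weeks. The median log2 fold change of the members was 4.03 at 8 weeks and 1.81 at 4 weeks, where the median of all genes is 0 by construction. The order of the genes depended on the offset, since the ICR arrays of Lcn2 and Ubd all lay below the array median: at 8 weeks Lcn2, Gdpd3 and Ubd came first with the offset used (5.59, 4.71 and 4.54), and Gdpd3, Lcn2 and Havcr1 with 4 times that offset (4.24, 4.01 and 3.90). At 4 weeks Havcr1 came first with either. Sox9 passed the filter only through the ICGN arrays of 8 weeks, so it had to be higher there, and Lcn2 and Ubd passed through ICGN arrays alone. At the limma threshold 9 of 9 members were past it at 8 weeks, against 8.51% of all genes called higher, and 6 of 9 at 4 weeks, against 1.6%. Nothing is read from these counts, since the strain differences took part in the choice of the genes.

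**Figure D1:**
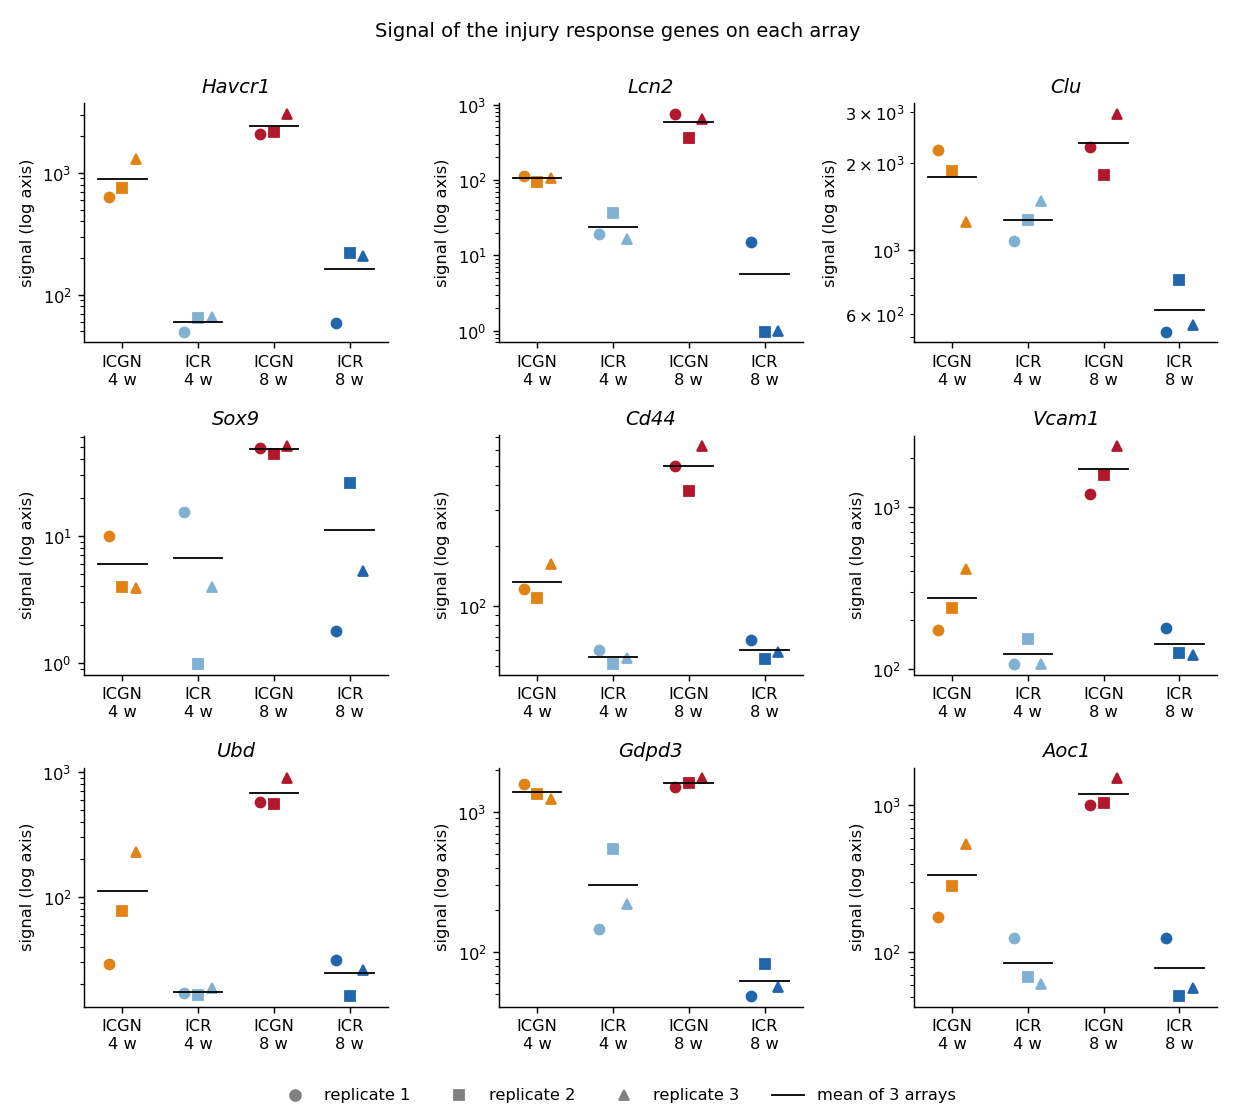
Signal of the 9 measured genes on each of the 12 arrays (log axis, arbitrary intensity units after scaling each array to a common median), with 1 symbol per replicate number and a line at the mean of 3 arrays. Every ICGN array lies above every ICR array at 8 weeks in all 9 panels, while Sox9 and Clu overlap at 4 weeks.

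Havcr1 encodes kidney injury molecule 1, a surface receptor by which injured proximal tubule cells take up dying cells. At 4 weeks its signal was 633, 752 and 1298 on the ICGN arrays and 49.7, 63.8 and 65.0 on the ICR arrays. At 8 weeks it was 2068, 2157 and 3028 on the ICGN arrays and 58.6, 221 and 207 on the ICR arrays. The lowest ICGN array of either age therefore lay well above the highest ICR array. The strain difference was 3.68 ± 0.36 on the log2 scale at 4 weeks (SE, 12.8-fold) and 4.18 ± 0.36 at 8 weeks (18.2-fold). Among the 9 genes Havcr1 had the largest difference at 4 weeks and the smallest gap between the ages, 0.51 ± 0.51. A second probe set of the gene gave 3.26 at 4 weeks and 3.23 at 8 weeks.

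With age Havcr1 rose in ICGN, by 1.55 ± 0.36 at 8 weeks over 4 weeks (limma adjusted p = 0.0104), and the arrays of the ages did not overlap. In ICR the change was 1.05 ± 0.36 (limma adjusted p = 0.0285), but the arrays overlapped, since ICR replicate 1 at 8 weeks stood at 58.6 beside 221 and 207. This call was lost without ICR replicate 1 or 2 of 4 weeks or ICR replicate 2 or 3 of 8 weeks, with values between 0.72 and 1.12 and adjusted p between 0.0572 and 0.124. The call in ICGN was lost without ICGN replicate 1 of 4 weeks (1.35, adjusted p = 0.0538). The second probe set, with no test of its own, gave age changes of 1.30 in ICGN and 1.33 in ICR. Its ICR arrays ran from 38.8 to 43.4 at 4 weeks and from 81.8 to 151 at 8 weeks, with no overlap.

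Lcn2 encodes lipocalin 2, also called NGAL, a secreted carrier of iron-binding siderophores that injured distal tubules and neutrophils release. At 4 weeks it had 114, 94.3 and 106 on the ICGN arrays and 19.1, 35.9 and 16.4 on the ICR arrays. The 8-week signals were 748, 362 and 639 on the ICGN arrays and 15.2, 0.968 and 0.976 on the ICR arrays. All 6 ICR arrays lay below their array median and all 6 ICGN arrays above it. Between the strains it differed by 1.86 ± 0.34 at 4 weeks (3.63-fold) and 5.59 ± 0.34 at 8 weeks (48.1-fold). Because the ICR signal was so low, both values depended on the offset: with no offset they were 2.24 at 4 weeks and 8.01 at 8 weeks, and with 4 times the offset 1.27 and 4.01, where Lcn2 at 8 weeks was below Gdpd3 (4.24). With the deposited scaling the 8-week value was 6.25.

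With age Lcn2 was called in opposite directions in the strains. It rose by 2.40 ± 0.34 in ICGN at 8 weeks over 4 weeks (limma adjusted p = 0.000352) and fell by 1.33 in ICR (SE 0.34, limma adjusted p = 0.0125). The fall in ICR was among signals below the array median and was lost with 4 times the offset (-0.60, adjusted p = 0.0787) and without ICR replicate 2 of 4 weeks (-1.05, adjusted p = 0.0627) or ICR replicate 3 of 8 weeks (-1.09, adjusted p = 0.0531). Neutrophils are another source of Lcn2. Summed signal of the 8 measured neutrophil markers of 10 listed ran from 153 to 181 in ICGN and from 133 to 173 in ICR at 4 weeks, and from 124 to 173 in ICGN and from 171 to 234 in ICR at 8 weeks. Camp, Ltf, Mpo and Cxcr2 stood at or below the array median on every array. Only 1 of the 8 markers, Ngp, passed the filter on low signal, and it was not called between the strains at either age. The sums are therefore mostly of low signals, and the part of neutrophils in the Lcn2 values was not tested.

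Clu encodes clusterin, a secreted chaperone of stressed epithelium that healthy kidney also makes. Its 4-week signals were 2221, 1885 and 1254 on the ICGN arrays and 1076, 1271 and 1474 on the ICR arrays, which overlapped. Its 8-week signals were 2269.7, 1826 and 2957 on the ICGN arrays and 521, 785 and 549 on the ICR arrays, which lay apart. The strain difference was 0.48 ± 0.22 at 4 weeks and 2.09 ± 0.22 at 8 weeks (4.27-fold). With age Clu fell by 1.13 in ICR at 8 weeks over 4 weeks (SE 0.22, limma adjusted p = 0.00249), while in ICGN the change was 0.49 ± 0.22 (limma adjusted p = 0.21). Its 4 probe sets ranged from 0.20 to 0.48 for the strain difference at 4 weeks and from 1.55 to 2.09 at 8 weeks, and with their mean the change in ICGN was 0.63 and called (adjusted p = 0.0429).

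Cd44 encodes the receptor for hyaluronan, a matrix sugar chain, and also binds osteopontin, the product of Spp1. On the arrays of 4 weeks Cd44 stood at 121, 110.0 and 162 on the ICGN arrays and 60.0, 51.4 and 55.0 on the ICR arrays. On those of 8 weeks it stood at 497, 376 and 625 on the ICGN arrays and 67.7, 54.3 and 58.6 on the ICR arrays. The groups lay apart at both ages, and the ICR arrays stayed within a narrow range. ICGN over ICR came to 1.12 ± 0.18 at 4 weeks (2.17-fold) and 3.04 ± 0.18 at 8 weeks (8.22-fold). Cd44 rose by 1.93 ± 0.18 in ICGN with age (limma adjusted p = 1.64e-05), and the change in ICR was 0.01 ± 0.18 (limma adjusted p = 0.716). Of its 4 probe sets 3 passed the filter, and these ranged from 0.67 to 1.12 at 4 weeks and from 2.96 to 3.50 at 8 weeks between the strains.

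Vcam1 encodes the vascular cell adhesion molecule 1, which binds integrins of leukocytes and is carried by activated endothelium and by tubule cells that fail to recover. At 4 weeks it had 174, 238 and 414 on the ICGN arrays and 108, 154 and 108 on the ICR arrays. At 8 weeks it had 1202, 1566 and 2351 on the ICGN arrays and 179.8, 125 and 123 on the ICR arrays. The groups were apart at both ages, narrowly at 4 weeks, where ICGN replicate 1 stood near ICR replicate 2. Vcam1 differed between the strains by 1.05 ± 0.28 at 4 weeks (2.07-fold) and 3.65 ± 0.28 at 8 weeks (12.6-fold). It rose by 2.71 ± 0.28 in ICGN with age (limma adjusted p = 2.67e-05), and the change in ICR was 0.10 ± 0.28 (limma adjusted p = 0.639). The 3 probe sets of the gene gave 2.55 to 3.65 between the strains at 8 weeks and 1.81 to 2.71 for the age change in ICGN. For the age change in ICR they gave 0.10 to 0.61, the lowest being that of the probe set used. On the probe set with 0.61 the ICR arrays ran from 43.9 to 63.4 at 4 weeks and from 70.2 to 100 at 8 weeks, with no overlap.

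Sox9 encodes a transcription factor of developing nephrons and of tubule cells that divide after injury. At 4 weeks its signal was 10.01, 3.94 and 3.91 on the ICGN arrays and 15.3, 0.983 and 3.96 on the ICR arrays. At 8 weeks it was 49.0, 44.0 and 50.6 on the ICGN arrays and 1.77, 26.0 and 5.32 on the ICR arrays. The 3 ICGN arrays of 8 weeks were close together and were the only arrays above the array median, through which the probe set passed the filter, so that it had to differ there. The strain difference was 0.02 ± 0.49 at 4 weeks and 1.88 ± 0.49 at 8 weeks (3.68-fold), and the age change in ICGN was 2.03 ± 0.49, which is given with no test because the filter chose the probe set by those arrays. The 8-week strain difference was 3.13 with no offset, 1.03 with 4 times the offset and 0.91 with no filter, where another probe set stood for the gene. The age change in ICGN was 3.24, 1.07 and 0.26 under the same settings. The other 2 probe sets lay below the array median on all 12 arrays and gave -0.22 and 0.94 between the strains at 8 weeks. The age change in ICR was 0.17 ± 0.49 (limma adjusted p = 0.72).

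Ubd encodes FAT10, a ubiquitin-like protein that tags others for the proteasome and is induced by TNF and interferon-gamma. Ubd signals of 4 weeks were 28.9, 77.1 and 231 on the ICGN arrays and 16.9, 16.5 and 18.5 on the ICR arrays. Those of 8 weeks were 579, 559.8 and 889 on the ICGN arrays and 31.1, 16.1 and 25.9 on the ICR arrays. No ICR array exceeded its array median, and the 3 ICGN arrays of 4 weeks spread 7.99-fold between the lowest and the highest. Its log2 fold change of ICGN over ICR was 1.83 ± 0.44 at 4 weeks (3.55-fold), or 1.14 without ICGN replicate 3 and 2.46 without ICGN replicate 1 of that age, and 4.54 ± 0.44 at 8 weeks (23.3-fold). With 4 times the offset it was 1.25 at 4 weeks and 3.70 at 8 weeks. Ubd rose by 2.94 ± 0.44 in ICGN with age (limma adjusted p = 0.000551), and the change in ICR was 0.23 ± 0.44 (limma adjusted p = 0.624). All 3 ICGN arrays of 8 weeks but only 2 of 4 weeks lay above the array median. The probe set thus passed the filter only with the 8-week arrays, and the age test in ICGN is not independent of the filter.

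Gdpd3 encodes a glycerophosphodiester phosphodiesterase that releases lysophosphatidic acid from lysophospholipids. Gdpd3 reached, at 4 weeks, 1593, 1352 and 1232 on the ICGN arrays and 147, 540.1 and 220.3 on the ICR arrays. It reached, at 8 weeks, 1500.3, 1611 and 1732 on the ICGN arrays and 48.9, 82.6 and 56.4 on the ICR arrays. The ICGN arrays of the ages overlapped, and the ICR arrays of 8 weeks lay below all those of 4 weeks. The strain difference was 2.39 ± 0.31 at 4 weeks (5.23-fold) and 4.71 ± 0.31 at 8 weeks (26.2-fold). Gdpd3 fell by 2.03 in ICR at 8 weeks over 4 weeks (SE 0.31, limma adjusted p = 0.000368), and the change in ICGN was 0.30 ± 0.31 (limma adjusted p = 0.678).

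Aoc1 encodes diamine oxidase, a secreted copper enzyme that breaks down putrescine and histamine. At 4 weeks it had 174, 283 and 546 on the ICGN arrays and 125, 67.7 and 60.6 on the ICR arrays. The arrays of 8 weeks gave 992, 1025 and 1509 on the ICGN arrays and 125, 50.7 and 57.1 on the ICR arrays. The groups were apart at both ages, and ICR replicate 1 was the highest ICR array at each age. Aoc1 differed between the strains by 1.81 ± 0.37 at 4 weeks (3.50-fold) and 4.03 ± 0.37 at 8 weeks (16.3-fold). Aoc1 rose by 1.99 ± 0.37 in ICGN with age (limma adjusted p = 0.00235), and the change in ICR was -0.23 ± 0.37 (limma adjusted p = 0.798).

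**Figure D2:**
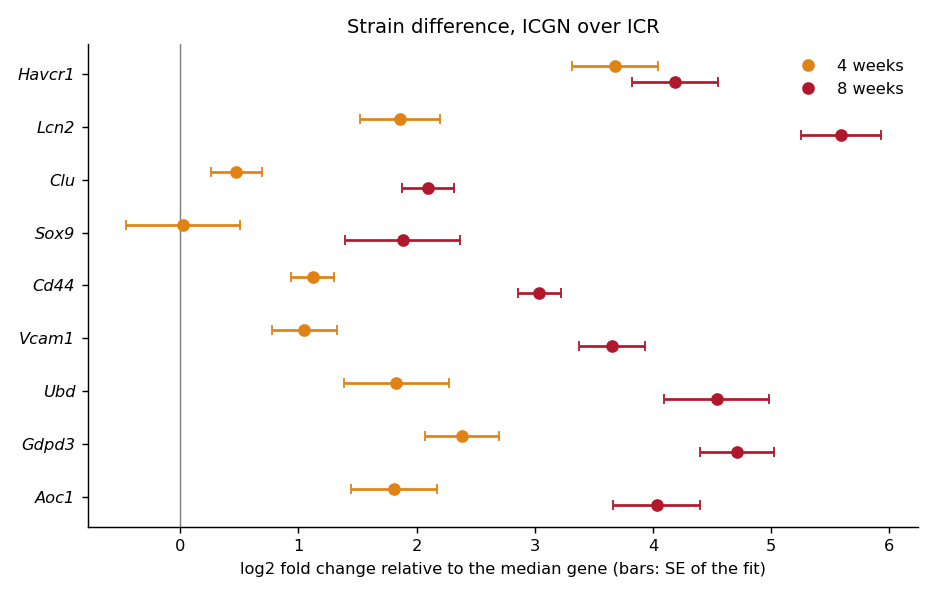
Strain difference of each gene at 4 and at 8 weeks as log2 fold change of ICGN over ICR relative to the median gene, with bars for the SE of the fit. The 8-week point lies to the right of the 4-week point for all 9 genes, and the bars of Havcr1 overlap.

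Age changes were tested within each strain. Sox9 is left out of these counts and medians, since the filter kept its probe set only through the ICGN arrays of 8 weeks. In ICGN 6 of the other 8 rose at 8 weeks over 4 weeks (Havcr1, Lcn2, Cd44, Vcam1, Ubd and Aoc1), against 6.35% of all genes called higher, and the arrays of these 6 did not overlap, against 12.1% of all genes. In ICR 3 of the 8 fell (Lcn2, Clu and Gdpd3), against 10.7% of all genes called lower, and Havcr1 was the 1 called higher, against 18%. The same 3 genes were those whose ICR arrays lay apart with 8 weeks lower, against 15.9% of all genes. The median age change of the 8 genes was 1.96 in ICGN and -0.11 in ICR. Ubd, 1 of the 6 that rose in ICGN, would not have passed the filter without the ICGN arrays of 8 weeks. Its rise is therefore not independent of the filter. The age tests use the same arrays as the strain differences that helped to choose the genes, so they are not independent of that choice, and the comparisons share their groups.

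**Figure D3:**
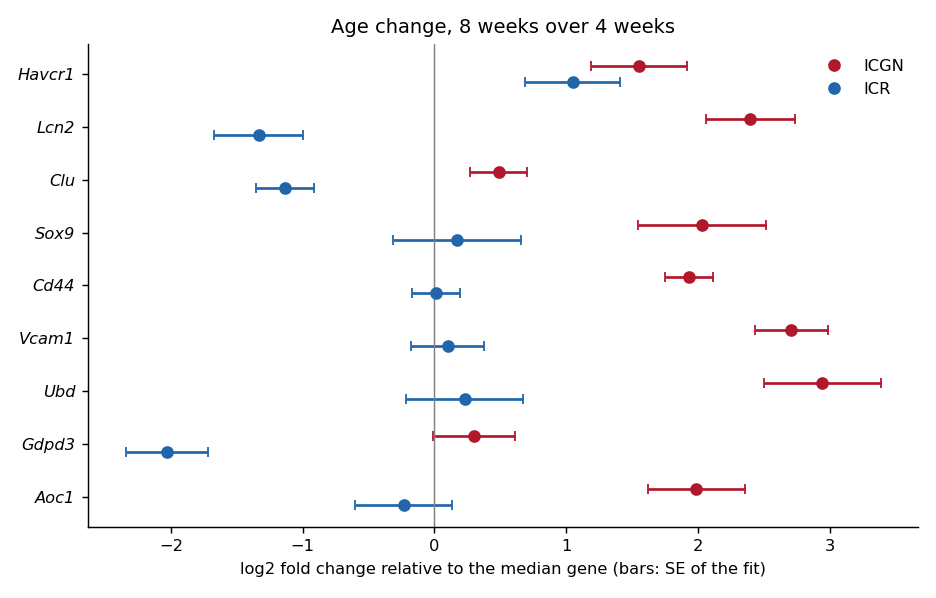
Age change of each gene within ICGN and within ICR as log2 fold change of 8 weeks over 4 weeks relative to the median gene, with bars for the SE of the fit. Clu and Gdpd3 lie at 0.49 and 0.30 in ICGN and at -1.13 and -2.03 in ICR, while Cd44, Vcam1, Ubd, Aoc1 and Sox9 lie between -0.23 and 0.23 in ICR.

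Within a group the genes did not follow the same order of arrays. At 4 weeks ICGN replicate 3 was the highest of its group for 5 of 9 genes (Havcr1, Cd44, Vcam1, Ubd and Aoc1) and the lowest for 3 (Clu, Sox9 and Gdpd3). Of all genes 44.2% were highest on that array. It also had the highest summed signal of 12 macrophage markers in its group, 4527, beside 3986 and 3947, and 9 of the 12 markers were highest there. The sums of other markers on that array stood at an end of the group as well. It was the highest for proximal tubule markers (121825 beside 93863 and 102895), lymphocyte markers (184 beside 146 and 104) and endothelial markers (3619 beside 3455 and 3315). It was the lowest for loop, distal tubule and collecting duct markers (29940 beside 35343 and 36255), podocyte, neutrophil, and fibroblast and pericyte markers. At 8 weeks ICGN replicate 3 was the highest for 8 of 9 genes, Lcn2 being the exception, but so were 63.8% of all genes; with the deposited scaling these were 6 of 9 genes and 28.7% of all genes.

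**Figure D4:**
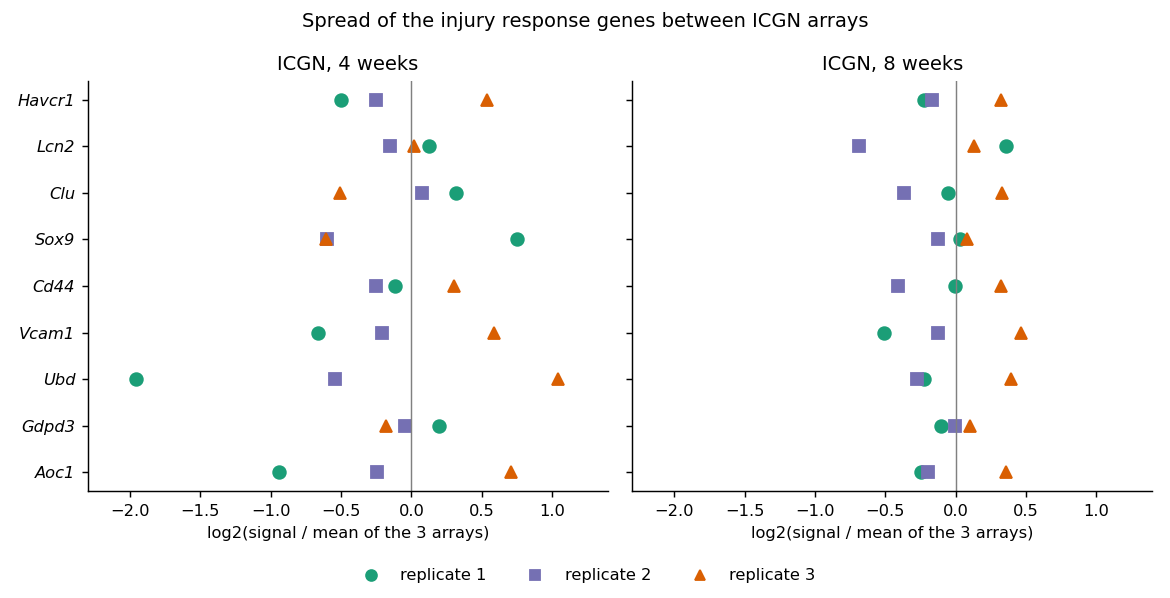
Signal of each gene on the 3 ICGN arrays of 4 weeks (left) and of 8 weeks (right), as log2 of the signal over the mean of the 3 arrays. At 4 weeks the triangles of replicate 3 lie to the right for Ubd, Aoc1, Vcam1, Havcr1 and Cd44 and to the left for Clu, Sox9 and Gdpd3.

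Across the 12 arrays, Pearson correlations of log2 values between pairs of the genes ran from 0.39 for Gdpd3 with Sox9 to 0.98 for Ubd with Vcam1. These points share 4 groups, and the coefficients describe mostly how the groups stand to each other. The tested genes outside the set with the most similar pattern over the 12 arrays were Acpp and Fcgr3 for Havcr1 (0.97 and 0.96), Mgp and Ankrd1 for Lcn2 (0.98 each), Cdh6 and Tspan8 for Clu (0.98 each), and BC035044 and Trim45 for Sox9 (0.92 and 0.91). Cd44 and Vcam1 shared the same nearest pair, Cp and Dpysl3 (0.98 to 0.99). Tlr2 came with Cd14 for Ubd (0.97 each) and with Cxcl2 for Aoc1 (0.98 each), and Col18a1 and Axl came nearest to Gdpd3 (0.97 each).

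Other transcripts of injured tubules were taken from 5 lists with 83 tested genes of 99 listed. Like the partner and marker lists, these were drawn up when earlier results of these arrays were already known. Their counts and adjusted p are therefore not independent of that choice, and nothing is read from the shares beside those of all genes. In ICGN 56 of the 83 rose and 1 fell relative to ICR at 8 weeks, a share of 67.5% beside 8.51% of all genes called higher, and at 4 weeks 21 rose and 2 fell, 25.3% higher beside 1.6% and 2.41% lower beside 1.38%. Their median log2 fold change was 0.94 at 8 weeks and 0.39 at 4 weeks. The 4-week count rested on single arrays: 8 rose without ICGN replicate 2 of 4 weeks, and 11 without ICGN replicate 1. With age 29 rose and 4 fell in ICGN, where 6.35% of all genes were called higher and 12.8% lower. In ICR 7 rose and 17 fell with age, beside 18% and 10.7%. In the lists below, rose and fell at an age mean higher and lower in ICGN than in ICR. The shares of all genes beside the counts of each list were 8.51% higher and 26% lower at 8 weeks, and 1.6% and 1.38% at 4 weeks.

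Among transcription factors of injured tubules, 8 of 13 rose at 8 weeks and 2 at 4 weeks. The immediate early factor Atf3 was 2.18 ± 0.41 higher in ICGN at 8 weeks and 1.63 ± 0.41 at 4 weeks (limma adjusted p = 0.00192 and 0.046). Myc, a driver of growth, rose at both ages (1.44 ± 0.23 at 8 weeks and 1.00 ± 0.23 at 4 weeks). The 4-week calls of Atf3 and Myc were lost without any 1 of the 3 ICGN arrays of that age, and over all arrays whose removal ended them the adjusted p ran from 0.0611 to 0.171 for Atf3 and from 0.0654 to 0.123 for Myc. Sox4 and Klf6 were higher in ICGN than in ICR at 8 weeks (1.37 ± 0.15 and 1.31 ± 0.19), where Sox9 stood at 1.88. With age Sox4 changed by 0.27 in ICGN and -0.84 in ICR, and Klf6 by 1.33 in ICGN and -0.05 in ICR.

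Of filament, adhesion and surface proteins, 18 of 20 rose at 8 weeks and 8 at 4 weeks. Tlr2, a sensor of bacterial lipoproteins, was 2.28 ± 0.26 higher at 8 weeks, and the keratin Krt20 1.97 ± 0.36 (limma adjusted p = 4.48e-05 and 0.00167). Lgals3, Anxa3 and the lipopolysaccharide receptor Cd14 rose by 1.94 ± 0.14, 1.84 ± 0.16 and 1.73 ± 0.13. Vim, the filament protein of mesenchymal and injured epithelial cells, was higher in ICGN than in ICR by 1.38 ± 0.12 at 8 weeks and 0.63 ± 0.12 at 4 weeks. With age Vim changed by -0.22 in ICGN and fell by 0.97 in ICR. Tnfrsf12a, the receptor of TWEAK, was higher in ICGN at either age (0.88 ± 0.20 at 8 weeks and 1.10 ± 0.20 at 4 weeks). Its 8-week call was lost without ICGN replicate 3 or ICR replicate 1 of that age (adjusted p = 0.0704 and 0.0751) and its 4-week call without ICGN replicate 2 (0.0507), and that of Vim at 4 weeks without ICGN replicate 1 (0.0546).

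Of 24 secreted factors 14 rose at 8 weeks. The largest were the chemokine Ccl2 (3.89 ± 0.34), the ferroxidase Cp (3.14 ± 0.19), and the chemokines Cxcl2 (2.83 ± 0.33) and Cxcl10 (2.42 ± 0.29), all within the range of the 9 members at that age. At 4 weeks 4 rose, namely Ccl2, Cxcl10, Cp and Cx3cl1, and Hbegf, a ligand of the EGF receptor, fell by 0.86. The call of Hbegf was lost without ICGN replicate 1 or 2 or ICR replicate 1 (adjusted p between 0.0515 and 0.0935), and that of Cxcl10 without ICGN replicate 2 (adjusted p = 0.0501). Il34, a ligand of the macrophage growth factor receptor, rose with age in both strains, by 1.33 ± 0.23 in ICGN and 2.06 ± 0.23 in ICR.

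**Figure D5:**
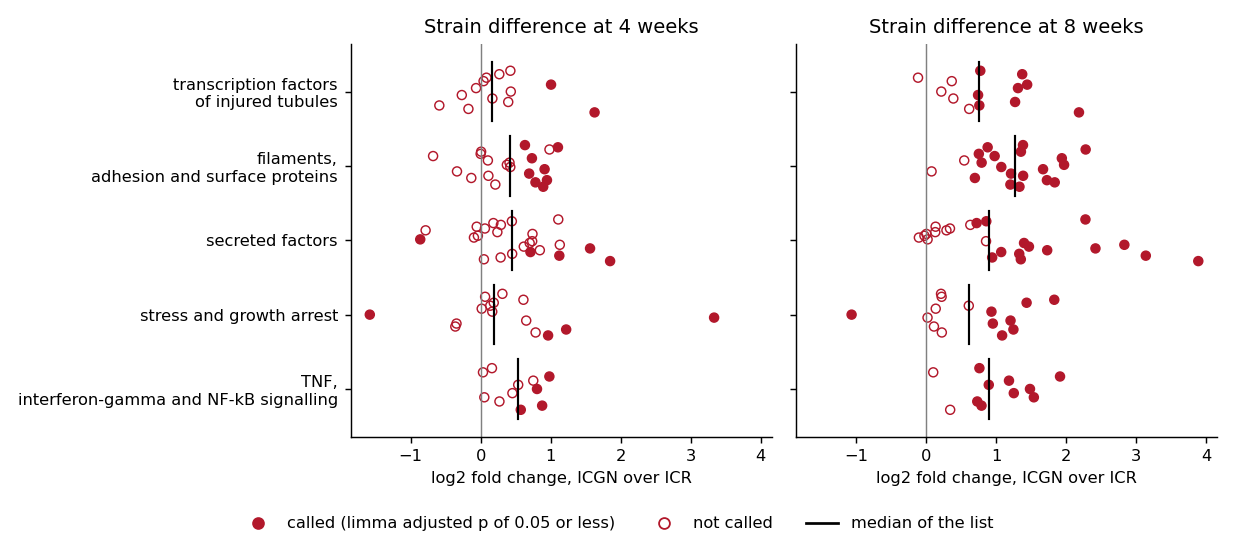
Strain difference of the 83 tested genes of 5 lists at 4 weeks (left) and 8 weeks (right), as log2 fold change of ICGN over ICR relative to the median gene; filled points were called by limma at an adjusted p of 0.05 or less, and a line marks the median of each list. At 8 weeks the 5 medians lie between 0.61 and 1.27, and Hspa1a of the stress list is the filled point below 0. The lists were drawn up when earlier results of these arrays were already known.

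Of 15 stress and growth arrest genes, 7 rose and 1 fell at 8 weeks, and 3 rose and 1 fell at 4 weeks. Hmox1, the heme-degrading enzyme, averaged 1162 ± 663 in ICGN and 95.2 ± 31.2 in ICR at 4 weeks, and 219 ± 62.8 in ICGN and 247 ± 78.4 in ICR at 8 weeks (SD, n = 3 each). Its strain difference was 3.33 ± 0.40 at 4 weeks (limma adjusted p = 0.00046) and 0.02 ± 0.40 at 8 weeks (limma adjusted p = 0.772), and the difference between the ages was itself called (-3.31, limma adjusted p = 0.00413). The cell cycle inhibitor Cdkn1a was higher in ICGN at both ages, by 1.25 ± 0.25 at 8 weeks and 1.22 ± 0.25 at 4 weeks, as was Birc3, an inhibitor of apoptosis. With age Cdkn1a changed by -1.09 in ICGN and -1.12 in ICR. At 4 weeks the call of Cdkn1a was lost without ICGN replicate 1 or 2 or ICR replicate 3 (adjusted p between 0.058 and 0.0763), and that of Birc3 without any 1 of the 6 arrays of that age or ICGN replicate 1 of 8 weeks (adjusted p between 0.0522 and 0.14). The chaperone Hspa1a fell at both, by 1.06 at 8 weeks and 1.59 at 4 weeks. Nupr1 and the metallothionein Mt2 were higher in ICGN at 8 weeks (1.83 ± 0.33 and 1.44 ± 0.27). With age Nupr1 changed by 0.06 in ICGN and -1.16 in ICR, and Mt2 by 1.44 in ICGN and 0.19 in ICR.

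Genes of TNF, interferon-gamma and NF-kB signalling, the pathways known to induce Ubd and Vcam1, rose for 9 of 11 at 8 weeks and 4 of 11 at 4 weeks. At 8 weeks Tnfaip3, an NF-kB target that restrains the pathway, rose by 1.91 ± 0.15 and the nuclear regulator Nfkbiz by 1.54 ± 0.18. The immunoproteasome subunits Psmb8 and Psmb10 rose by 1.48 ± 0.19 and 1.25 ± 0.16. At 4 weeks the 4 were Tnfaip3 (0.98 ± 0.15), Nfkb2 (0.88 ± 0.20), Psmb8 (0.80 ± 0.19) and Irf1 (0.57 ± 0.13). The 4-week calls of Nfkb2, Psmb8 and Irf1 were each lost without any 1 of the ICGN arrays or 2 of the ICR arrays of that age, with adjusted p between 0.0625 and 0.135. With age 7 of the 11 rose and 1 fell in ICGN, beside 6.35% of all genes called higher and 12.8% lower. In ICR 1 rose with age, beside 18% of all genes called higher.

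Ligands, receptors and enzymes that act with the members were counted too. Of 25 tested partners in 3 lists, 4 rose and 7 fell at 8 weeks, a share of 16% higher beside 8.51% of all genes and of 28% lower beside 26%, and 1 rose at 4 weeks. With the deposited scaling 6 rose and 2 fell at 8 weeks, and the falls of Lrp2, Srm and Gpcpd1 given next were not called. The receptor of oncostatin M, Osmr, was that 1 gene (1.05 ± 0.14 at 4 weeks and 1.41 ± 0.14 at 8 weeks), and Socs3, the feedback inhibitor of cytokine receptors, rose at 8 weeks (1.76 ± 0.31). Lrp2, megalin, which takes up filtered Lcn2 protein, fell by 0.43 at 8 weeks. Around Aoc1, the polyamine enzymes Odc1, which makes putrescine, and Srm fell by 1.25 and 0.33 at 8 weeks. Around Gdpd3, its relatives Gdpd5 and Gdpd1 rose by 1.25 ± 0.20 and 1.05 ± 0.25 at 8 weeks, while Gde1 and Gpcpd1 fell by 0.41 and 0.23. The calls of Gdpd1 and Gpcpd1 were each lost without 1 of 3 arrays (adjusted p between 0.0504 and 0.115), that of Lrp2 without ICGN replicate 1 or ICR replicate 3 of 8 weeks (0.108 and 0.089) and that of Srm without ICR replicate 3 (0.0565).

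Markers of several other cell types differed between the same groups. Of 12 macrophage markers 11 rose in ICGN at 8 weeks, beside 8.51% of all genes called higher, and 7 at 4 weeks, beside 1.6%. Among them were Mpeg1 (2.28 ± 0.20 at 8 weeks and 1.46 ± 0.20 at 4 weeks) and the complement subunit C1qa (2.05 and 1.26). The summed signal of the 12 markers ran from 3947 to 4527 in ICGN and from 2356 to 3179 in ICR at 4 weeks. At 8 weeks it ran from 7147 to 8868 in ICGN and from 3285 to 4539 in ICR, and none of the markers was at or below the array median on all arrays. Macrophages also express Cd44, Vcam1, Tlr2, Cd14, Ccl2 and Cp, and their part in the results above was not tested. Of the 8 measured lymphocyte markers of 10 listed, Cd4, Cd79a, Cd79b and Ms4a1 stood at or below the array median on every array. The summed signal of the 8 ran from 104 to 184 in ICGN and from 85.8 to 115 in ICR at 4 weeks. At 8 weeks it ran from 168 to 220 in ICGN and from 128 to 163 in ICR, where the groups lay apart. Only 2 of the 8 markers, Cd3e and Cd8a, passed the filter on low signal, and 0 were called at either age. At 8 weeks these 2 averaged 28.2 and 33.7 in ICGN and 32.3 and 40.5 in ICR, the other way from the sums.

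Fibroblast and pericyte markers, from cells that also express Vim and Cd44, rose for 3 of 6 in ICGN at 8 weeks, beside 8.51% of all genes called higher, and 1 of 6 fell at 4 weeks, which was not called with the deposited scaling. Their summed signal ran from 5995 to 7161 in ICGN and from 7486 to 10210 in ICR at 4 weeks, and from 6918 to 7593 in ICGN and from 4386 to 5682 in ICR at 8 weeks. Of 13 markers of the loop, distal tubule and collecting duct, epithelium that includes a source of Lcn2, 1 rose and 5 fell at 8 weeks. Of all genes 8.51% were called higher and 26% lower at that age. With the deposited scaling 3 of these markers rose and 4 fell at 8 weeks. At 4 weeks 2 of the 13 fell, beside 1.38% of all genes. The summed signal of the 13 ran from 29940 to 36255 in ICGN and from 36762 to 42374 in ICR at 4 weeks. At 8 weeks it ran from 18783 to 25402 in ICGN and from 31173 to 36244 in ICR. Endothelial markers, from cells that can carry Vcam1, rose for 0 of 7 and fell for 5 of 7 in ICGN at 8 weeks, beside 26% of all genes called lower. With the deposited scaling 3 of the 7 fell at 8 weeks, and 0 of 7 were called at 4 weeks. Proximal tubule markers fell for 13 of 16 in ICGN at 8 weeks, beside 26% of all genes called lower, and for 0 of 16 at 4 weeks in the limma test, where the median was -0.14. With quantile normalization 8 of the 16 fell at 8 weeks, and the part of these cells in the results was likewise not tested. Their summed signal ran from 93863 to 121825 in ICGN and from 116303 to 130360 in ICR at 4 weeks, and from 77703 to 99503 in ICGN and from 133633 to 162459 in ICR at 8 weeks.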

How the data were processed

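The authors deposited a signal intensity for each probe set, linear in scale. MAS5 is named in the submitters' processing notes, and its version is not stated there. In R 4.3.3 with limma 3.58.1, all arrays were brought to the same median, 40.4, and log2(signal + 9) was taken, 9 being the 25th percentile of the deposited table. This offset makes the fold changes of dim genes too small. Probe sets had to exceed the median of their array on 3 or more of the 12 arrays, and a gene was read from its brightest probe set by mean, _x_at ones last. Probe sets without exactly 1 annotated symbol (932 with several, 9224 with none) were not used.

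A linear model with 4 group means and 8 residual degrees of freedom was fitted to all 12 arrays, with limma's moderated test and a mean-variance trend. Benjamini-Hochberg adjustment covered the 12385 genes, and a gene was called at 0.05 or less. Printed fold changes have the median of the contrast subtracted, which was -0.02 and -0.19 for the strain differences at 4 and 8 weeks and -0.08 and 0.09 for the age changes in ICGN and ICR, and the test was made before that subtraction. The members and all gene lists were chosen with earlier results of these data known. Named genes are all members, up to 4 called genes of each list and comparison with the largest change, the 2 nearest genes of each member, and Tns2, and the markers Mpeg1 and C1qa were named after their values were seen. On simulated data for the strain comparison at 8 weeks with 12385 genes, 84% of changes of 1 and 98% of changes of 2 on the log2 scale were recovered, with 12 false calls. The simulated noise was independent, 100 genes were raised by each size and none lowered, and the arrays did not differ in scaling. The false calls therefore say nothing about calls that depend on the scaling. Alternatives were the offset, scaling, filter, probe set rule, trend, replicate block, single ages and leaving out each array. Promoter sequences are RefSeq's for GRCm38.p6, in which Clu, Sox9 and Vcam1 had no entry in the table used.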

Additional observations from a re-analysis of the deposited data

Results flagged for a closer look

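Results are listed here because the strain difference itself differed between the ages by limma's interaction term, or because the strains moved in opposite directions. For Lcn2, the age change in ICGN minus that in ICR was 3.74 on the log2 scale, with every ICGN array of 8 weeks above those of 4 weeks and every ICR array of 8 weeks below those of 4 weeks. The ICR signals all lay below the array median, with 15.2 as the highest at 8 weeks and 16.4 as the lowest at 4 weeks, and the fall in ICR was not called with 4 times the offset or without either of 2 arrays. From the separate age changes the difference was 5.77 with no offset and 2.75 with 4 times the offset. This difference was not tested, since the strain differences took part in choosing the gene.

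Among the other genes, the strain difference at 8 weeks minus that at 4 weeks was largest in size for Hmox1 (-3.31, adjusted p = 0.00413), which was higher in ICGN at 4 weeks and not at 8 weeks. The difference was positive for the secreted factors Ccl2 (2.05, adjusted p = 0.0289) and Cp (2.02, adjusted p = 0.00213). It was positive for the transcription factors Klf6 (1.39) and Sox4 (1.11) and for the NF-kB genes Nfkbiz (1.49) and Tnfaip3 (0.94). Klf6 changed with age by 1.33 in ICGN and -0.05 in ICR, but Sox4 by 0.27 in ICGN and -0.84 in ICR. The difference can thus hold a fall in ICR as well as a rise in ICGN. The strain difference also grew for the surface and filament genes Lgals3 (1.21), Anxa3 (1.06) and Vim (0.76), for the protease Ctss (1.08) and for Gdpd5 (1.30). Slc22a17, a receptor for lipocalin 2, had a difference of -0.51, with strain differences of -0.06 at 8 weeks and 0.46 at 4 weeks that were not called. The interaction term was tested before the median of the contrast was subtracted. It was not run under the other scalings, so the call of a small difference like that of Slc22a17 may depend on the scaling.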

How the results depend on the processing

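Values of the 9 members that were past the threshold kept their direction under every setting run. Quantile normalization called 338 genes higher at 4 weeks, 1699 higher and 1670 lower at 8 weeks, 1299 higher with age in ICGN and 2084 lower with age in ICR. Centring on tested probe sets called 1189 higher with age in ICGN, and the fit on 4-week arrays alone 258 lower. The deposited scaling called 2415 higher and 1562 lower at 8 weeks; for age changes it was not run, because the deposited ages are not on 1 scale. Bringing them to 1 target, chosen after seeing the data, called 2530 genes lower with age in ICR, 0 members higher and 3 related genes higher. With no mean-variance trend 0 members were called higher with age in ICR. The cause was not tested.

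Deviations of same-numbered arrays correlated at -0.10 to 0.11, and 1 of 18 pairs was over 0.1. The numbers were treated as names, and whether they mark litter mates or another pairing was not tested. With the replicate block, 2 related genes were called lower at 8 weeks, and 1067 genes higher and 3461 lower.

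Leaving out each array in turn gave ranges. At 4 weeks these were 89 to 227 genes higher (89 without ICGN replicate 2, 102 without ICGN replicate 1), 78 to 188 lower, 8 to 22 related genes higher and 1 to 2 lower. At 8 weeks 2099 to 3507 genes were lower (2099 without ICR replicate 3, 2113 without ICGN replicate 1) and 1 to 2 related genes lower. With age in ICGN 461 to 905 genes were higher, 982 to 1694 lower, 19 to 31 related genes higher (19 without ICGN replicate 3 of 8 weeks) and 2 to 5 lower. With age in ICR 1443 to 2447 genes were higher (1443 without ICR replicate 3 of 8 weeks), 0 to 1 members higher, 2 to 9 related genes higher and 10 to 17 lower (2 and 10 without ICR replicates 2 and 1 of 4 weeks). Over all settings together, 22 of the members' values moved by more than the replicate spread, 6 of them with an array left out. Age calls of Havcr1 and Lcn2 were lost in 10 cases, 7 of them with an array left out, Sox9 having no age test in ICGN. Signals below the array median, as for Lcn2 and Ubd in ICR, limit how well a fold change is known.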
